A study of Mus musculus with 12 samples.

Results

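The genes described here encode the integrins of mesenchymal stromal cells (MSCs) and the proteins that couple integrins to the actin cytoskeleton at focal adhesions. They are 32 genes, chosen by symbol from the count table: 12 alpha subunits, 8 beta subunits and 12 adaptors and kinases. All 32 were found among the 55487 genes of the table. RNA was measured by strand-specific, poly(A)-selected sequencing in cultured, adherent bone marrow MSCs of wild-type C57BL/6 mice (females of 6 to 8 weeks per the methods), in 3 groups of 4 samples. Control MSCs, called Negative in the labels, received no compound. The second group received 50 μM A1 for 6 h, and the third 50 μM A1 together with 1 mg/mL of OVA (chicken ovalbumin) for 6 h. A1 is a variant of Accum, a molecule in which cholic acid is linked to a nuclear localization peptide, here that of hnRNPA1. The labels describe the medium of the A1 + OVA cells with the word insulin, without an amount, so that OVA and insulin cannot be told apart in that group. No group received OVA alone. All groups share the same culture in serum-containing medium, and the cells were a population expanded over passages, not freshly isolated stroma. No time is given for the control cells, so that effects of A1 and of handling over the 6 h cannot be told apart. The labels do not say whether the 4 samples of a group came from separate animals or cultures, so that p-values measure only the spread between these samples.

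Integrins are receptors made of 1 alpha and 1 beta subunit, and the pair decides which matrix protein is bound. Subunits pair after synthesis, and a shared beta subunit such as Itgb1 can serve many alpha subunits, so that transcript levels of both partners describe the supply of subunits and not the number of receptors. Inside the cell, talins and kindlins bind the beta tail. Kindlin recruits a complex of integrin-linked kinase (ILK), a PINCH protein and a parvin, and focal adhesion kinase, Src, paxillin and the Cas proteins carry the signal onward. In the bone marrow, stromal integrins hold the cells to fibronectin, collagen and laminin, and VCAM-1 on stromal cells is a ligand for integrins of blood cells.

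Sequencing gave 13702348 to 16881995 counts per sample, of which 97.7 to 98.5% fell on protein-coding genes. Levels are given as CPM, counts scaled to the normalized size of each library. Ratios and shares between genes use CPM per kb of exon or, where stated, of the longest transcript. Plain CPM of different genes are not corrected for length. A gene was called when the adjusted p-value (edgeR's quasi-likelihood test, Benjamini-Hochberg over 11314 tested genes) was under 0.05, and a stricter call also asked for a log2 fold change of at least 0.5 in size. The leukocyte markers Spi1, Cd52, Tyrobp and Cd3e and the epithelial marker Epcam were at 0 counts or, for Ptprc and Itgam, at most 4 and 1 counts in any sample, and the endothelial marker Pecam1 had at most 4. Other markers of these lists were detected. Of the 16 leukocyte markers, 7 had at most 3 counts in every control sample and 10 in every sample of either treated group, and Lcp1, an actin-bundling protein, rose from 2.01 CPM on average to 5.56 with A1 and 9 with A1 + OVA. Of the 8 epithelial markers, 7 had at most 3 counts in every control sample and 6 in the treated groups, and Krt19 rose from 4.50 CPM to 10.1 and 9.33. The part of these genes in the results was not tested. Of the MSC markers, Pdgfra, Pdgfrb, Cd44, Cxcl12 and the type I collagens were abundant, while Thy1 (CD90) had 17 counts in control sample 2 and at most 3 in every other sample, and Nt5e (CD73) stayed under 1 CPM on average in each group. The summed CPM of the 12 MSC markers was 15600 to 16500 in control samples, 14100 to 14900 with A1 and 14200 to 14800 with A1 + OVA. In RNA from a whole culture, fewer cells of a type and less RNA per cell cannot be told apart.

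Promoter sequences of 4 members are shown so that genes moving in opposite directions can be read side by side: Itga5, Itgb1 and Parvb, which rose, and Itga1, which fell. Itga6, Itgb3 and Lims2 had no promoter in the table used. They are the 250 bases before the RefSeq start site (GRCm38.p6), at chr15:103366792-103367041 (minus strand), chr8:128685404-128685653 (plus strand), chr15:84231793-84232042 (plus strand) and chr13:115101965-115102214 (minus strand). Capitals mark the GC box GGGCGG on either strand and, in Itgb1, also GGAATG, the core read by TEAD factors.
Itga5: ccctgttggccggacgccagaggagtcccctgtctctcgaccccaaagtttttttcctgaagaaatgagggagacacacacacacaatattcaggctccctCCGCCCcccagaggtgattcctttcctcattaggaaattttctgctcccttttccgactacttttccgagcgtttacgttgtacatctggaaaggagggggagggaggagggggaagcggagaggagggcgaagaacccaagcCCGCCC
Itgb1: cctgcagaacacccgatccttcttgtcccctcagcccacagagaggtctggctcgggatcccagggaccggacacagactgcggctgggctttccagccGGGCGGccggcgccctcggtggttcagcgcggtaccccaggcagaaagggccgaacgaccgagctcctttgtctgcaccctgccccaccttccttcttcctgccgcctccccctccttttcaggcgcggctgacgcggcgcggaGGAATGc
Parvb: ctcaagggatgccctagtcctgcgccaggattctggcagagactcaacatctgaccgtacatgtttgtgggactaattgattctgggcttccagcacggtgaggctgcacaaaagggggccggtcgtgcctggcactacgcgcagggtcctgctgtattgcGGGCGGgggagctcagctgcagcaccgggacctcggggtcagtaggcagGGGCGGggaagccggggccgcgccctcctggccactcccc
Itga1: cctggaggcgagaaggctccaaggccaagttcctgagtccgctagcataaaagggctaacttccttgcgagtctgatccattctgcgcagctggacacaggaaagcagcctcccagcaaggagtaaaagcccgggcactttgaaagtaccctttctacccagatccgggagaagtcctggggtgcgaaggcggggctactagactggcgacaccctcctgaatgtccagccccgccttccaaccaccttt
None of the searched words stood in the Itga1 window. The search, on both strands, also covered the AP-1 word TGANTCA, the CRE TGACGTCA, the TATA word TATAAA and the CArG box. Of the 26 tested members, 19 had a promoter in the table. GC boxes stood in 10 of these 19, against 61.4% of the 8954 tested genes with a promoter. The 10 were Bcar1, Fermt2, Itga3, Itga5, Itgb1, Itgb5, Lims1, Nedd9, Parvb and Src. Among them, Nedd9 fell in both comparisons with control, Lims1 fell with A1 and Itga3 was not called. Of the members without a GC box, Itga2, Itgav, Ilk and Fblim1 rose and Itga1 and Itgb8 fell. The TEAD core stood in 3 (Fblim1, Itga10 and Itgb1), against 10.2%. The AP-1 word stood in 1 (Fblim1), against 4.27%. A match is a word in a window and not a binding site.

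Of the 32 members, 26 passed the filter on low counts. Itga4, Itga8 and Itgb6 had at most 1 count in any sample, Itgb4 at most 3, Itga9 at most 6 and Itga7 at most 8. Alpha4 and alpha9 (receptors for VCAM-1, tenascin-C and osteopontin), alpha7 and alpha8, beta6 and the hemidesmosome subunit beta4 were thus at or near the limit of detection at this depth in all 3 groups. A1 raised 16 of the 26 tested members and lowered 5. Among all tested genes, 31.7% were called higher and 31.1% lower. With the stricter call, 10 members were higher and 4 lower, where 9.41% and 11.6% of all tested genes were. The median log2 fold change was 0.31 over the tested members and -0.0017 over all tested genes. With A1 + OVA, 16 members were called higher and 3 lower than in control (all tested genes 29.7% and 27.9%), and 10 and 3 by the stricter call (8.92% and 8.79%). Their median log2 fold change was 0.37. Both comparisons use the same control samples. The members called higher in each, also by the stricter call, include Itga2, which passed the filter on low counts only through the treated samples. The 4 samples of the 2 groups did not overlap for 21 of 26 members in A1 against control, where this held for 54.4% of tested genes, and for 19 in A1 + OVA against control, where it held for 49.4%.

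**Figure D1:**
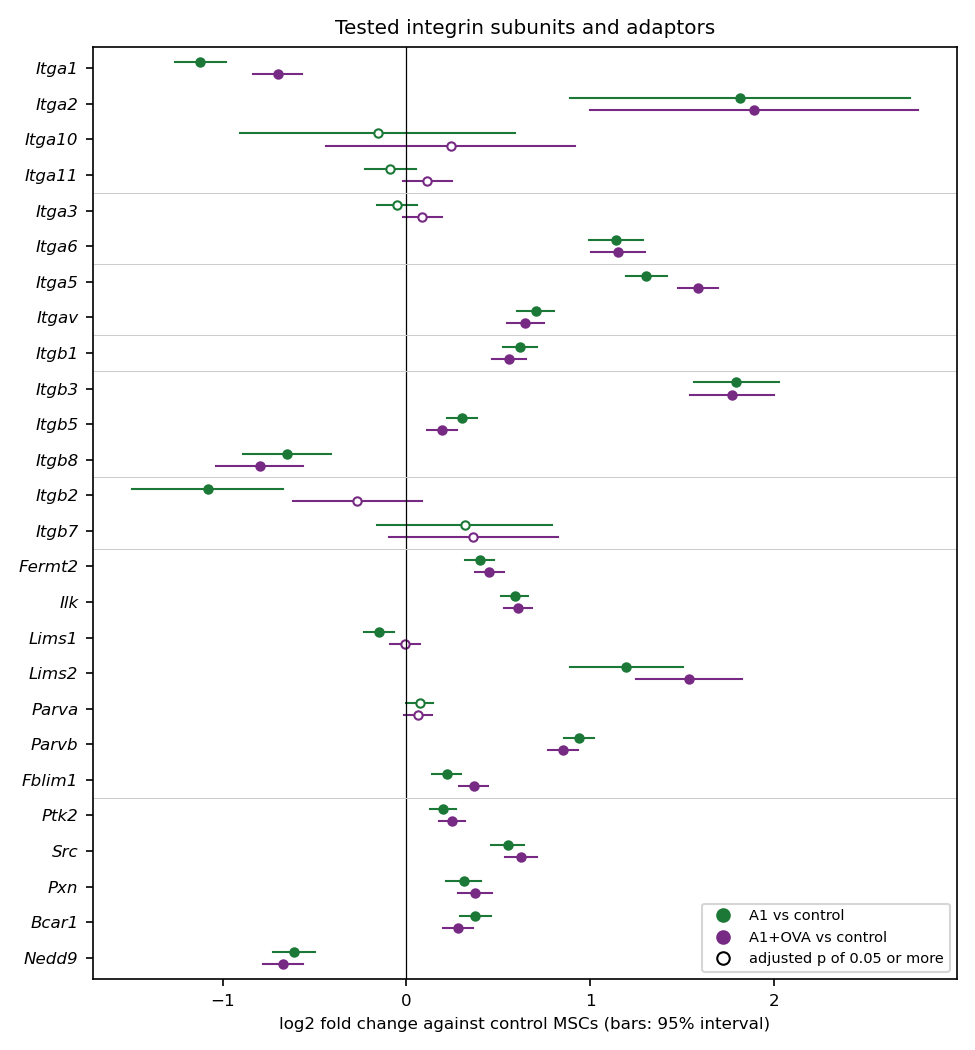
Log2 fold change against control MSCs (x axis) of the 26 tested members (y axis), with A1 in green and A1 + OVA in purple. Points are estimates, bars 95% intervals over 4 samples per group, and open points have an adjusted p-value of 0.05 or more. Itgb3, Itga2, Itga5, Itga6 and Lims2 lie above 1 in both comparisons, Itga2 from at most 5 counts per control sample. Itga1, Itgb8, Nedd9, Itgb2 and Lims1 lie below 0 in both, Itgb2 and Lims1 with open points for A1 + OVA.

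Of the alpha subunits that bind fibronectin and other RGD ligands, Itga5 and Itgav rose and Itga8 was too low to test. Itga5 (chr15:103344286-103366763, ENSMUSG00000000555), whose pair with Itgb1 is the main fibronectin receptor, was at 172, 160, 187 and 188 CPM in control MSCs, at 412, 443, 428 and 465 CPM with A1, and at 498, 511, 561 and 555 CPM with A1 + OVA. The 3 groups did not overlap. The log2 fold change was 1.31 ± 0.053 (SE) with A1 (adjusted p = 6.56e-15) and 1.59 ± 0.053 with A1 + OVA (adjusted p = 2.83e-16), which is 2.47 and 3 times the control level. Itgav (chr2:83724397-83806916), the alpha subunit of the vitronectin receptors, was at 380, 454, 447 and 437 CPM in control, at 670, 711, 690 and 729 CPM with A1, and at 679, 697, 674 and 639 CPM with A1 + OVA. Every treated sample lay above every control sample, while the treated groups overlapped. Its log2 fold change was 0.70 ± 0.049 with A1 (adjusted p = 4.2e-11) and 0.65 ± 0.048 with A1 + OVA (adjusted p = 1.95e-10).

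Itgb1 (chr8:128685654-128733200), the common partner of most alpha subunits measured here, was the most abundant integrin transcript. It was at 1393, 1555, 1432 and 1424 CPM in control, at 2111, 2217, 2335 and 2236 CPM with A1, and at 2267, 2187, 2044 and 2053 CPM with A1 + OVA. No treated sample overlapped with control, and the log2 fold change was 0.62 ± 0.045 with A1 (adjusted p = 9.13e-11) and 0.56 ± 0.045 with A1 + OVA (adjusted p = 5.09e-10). Per kb of exon, Itgb1 stood at 356 ± 17.5, 545 ± 22.4 and 524 ± 26.5 CPM (SD, n = 4) in control, A1 and A1 + OVA. It made up 86.3 ± 0.842%, 88.6 ± 0.557% and 88.9 ± 0.201% of the summed per-length level of the 8 beta subunits. The summed per-length level of the 12 alpha subunits was lower than that of the beta subunits in each group, at 106 ± 5.92, 185 ± 7.72 and 204 ± 6.13 against 412 ± 16.6, 615 ± 22.3 and 589 ± 28.6 CPM per kb.

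The beta partners of alphav did not move as a unit. Itgb3 (chr11:104608000-104670476), which with Itgav forms the vitronectin receptor known from osteoclasts and new vessels, was at 4.76, 3.61, 3.96 and 4.2 CPM in control, at 14.2, 15.2, 12.9 and 15 CPM with A1, and at 13, 16.1, 12.4 and 14.8 CPM with A1 + OVA. All treated samples lay above all control samples. Its log2 fold change was 1.80 ± 0.11 with A1 (adjusted p = 6.91e-12) and 1.77 ± 0.11 with A1 + OVA (adjusted p = 8.08e-12), from a low base. Itgb5, the other vitronectin partner, was far more abundant and rose less, from 190 ± 6.31 CPM (SD, n = 4) in control to 235 ± 8.74 with A1 (log2 0.30 ± 0.039, adjusted p = 7.73e-07) and 217 ± 7.73 with A1 + OVA (log2 0.19 ± 0.039, adjusted p = 0.000229). Itgb8, whose pair with Itgav binds latent TGF-beta, went the other way. It was at 8.54, 7.80, 8.85 and 7.15 CPM in control, at 4.70, 5.80, 4.73 and 5.37 CPM with A1, and at 5.15, 3.99, 4.22 and 5.24 CPM with A1 + OVA. Both treated groups lay below control, with log2 fold changes of -0.65 ± 0.115 (adjusted p = 4.88e-05) and -0.80 ± 0.114 (adjusted p = 3.9e-06). Per kb of summed exon, Itgb8 and Itgb3 stood near each other in control MSCs, with a ratio of 1.05 ± 0.142 (SD, n = 4). Itgb8 was at 0.192 ± 0.0117 of Itgb3 with A1 and 0.179 ± 0.0336 with A1 + OVA. Per kb of the longest transcript, Itgb8 was above Itgb3 in control, at 0.962 against 0.715 CPM. It was below Itgb3 with A1 (0.613 against 2.48) and with A1 + OVA (0.553 against 2.43). The ratio of Itgb3 to Itgb5 was 0.0131 ± 0.00132, 0.0369 ± 0.00387 and 0.0390 ± 0.00486 in the same order, so that Itgb5 remained the larger transcript in each group.

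**Figure D2:**
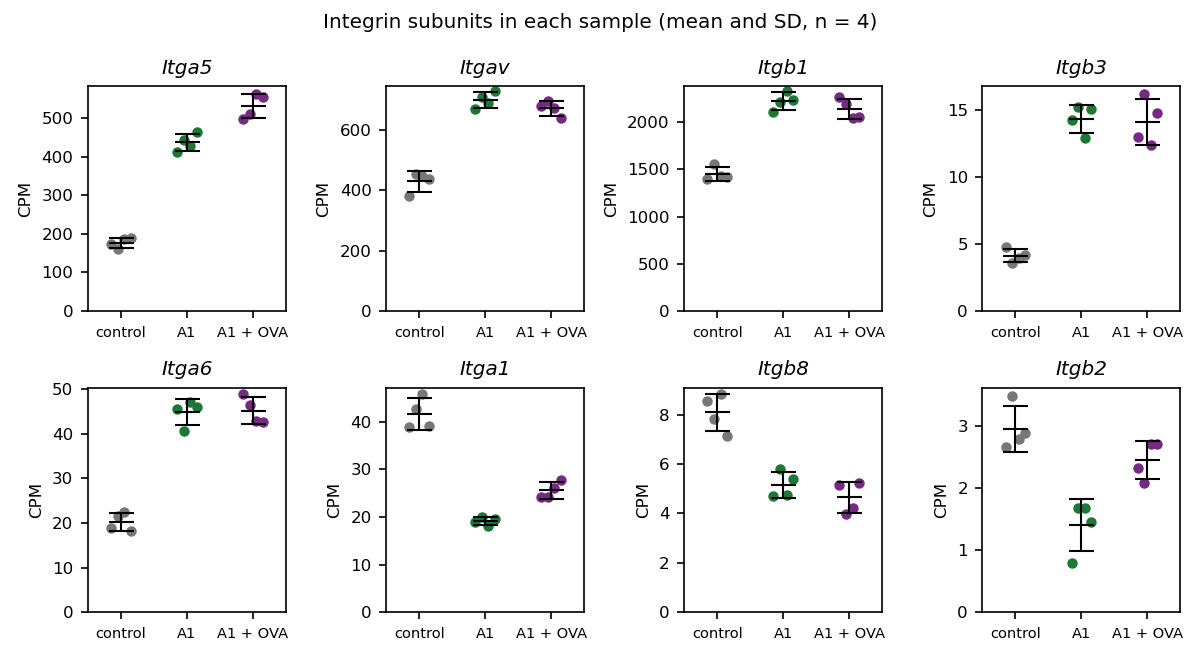
CPM (y axis, from 0) of 8 integrin subunits in each of the 12 samples by group (x axis), with mean and SD as bars. Itga5, Itgav, Itgb1, Itgb3 and Itga6 are higher and Itga1 and Itgb8 lower in all treated samples than in all control samples, and Itgb2 is lowest in the A1 samples.

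The laminin-binding alpha subunits differed from each other. Itga6 (chr2:71745616-71858416) was at 18.9, 21.6, 22.5 and 18.2 CPM in control, at 45.5, 40.7, 47.2 and 46.1 CPM with A1, and at 48.9, 46.4, 43.0 and 42.6 CPM with A1 + OVA. It was 2.21 times the control level with A1 and 2.22 times with A1 + OVA (log2 1.14 ± 0.071 and 1.15 ± 0.07, adjusted p = 6.88e-12 and 5.79e-12), with no overlap with control. Itga3, the more abundant laminin receptor subunit, was at 113 ± 9.2, 109 ± 6.2 and 120 ± 4.24 CPM (SD, n = 4) in control, A1 and A1 + OVA. It was not called against control, and its 95% intervals ran from -0.16 to 0.06 on the log2 scale with A1 and from -0.02 to 0.20 with A1 + OVA. Per length, the ratio of Itga6 to Itga3 was 0.114 ± 0.0178 in control, 0.261 ± 0.0269 with A1 and 0.238 ± 0.0209 with A1 + OVA.

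Among the collagen-binding alpha subunits, Itga1 fell and Itga11 was not called. Itga1 (chr13:114953096-115101964), a receptor subunit for type IV and other collagens, was at 38.8, 42.7, 45.8 and 39.1 CPM in control, at 18.9, 20, 18.1 and 19.5 CPM with A1, and at 24.3, 24.1, 26.1 and 27.9 CPM with A1 + OVA. The 3 groups did not overlap, and the level with A1 + OVA lay between the others. The log2 fold change was -1.12 ± 0.067 with A1 (adjusted p = 4.18e-12) and -0.70 ± 0.064 with A1 + OVA (adjusted p = 4.36e-09). Gm49395, a read-through gene on the same strand, overlaps Itga1, and reads in exons that they share are uncertain. Itga11, a receptor for fibrillar collagen in mesenchymal cells, was at 30.3 ± 2.52 CPM in control, 28.5 ± 1.19 with A1 and 32.7 ± 2.33 with A1 + OVA (SD, n = 4). Its intervals against control ran from -0.23 to 0.05 with A1 and from -0.02 to 0.25 with A1 + OVA on the log2 scale. Itga2, a further collagen receptor subunit, was called higher in both comparisons but rested on few counts. It had 2 to 5 counts per control sample, 5 to 14 with A1 and 9 to 14 with A1 + OVA. Itga2 passed the filter on low counts only through the treated samples. Its control counts were 5, 3, 2 and 2, where 3 or fewer were read as undetectable. The log2 fold changes of Itga2, 1.82 and 1.89, had intervals of 0.89 to 2.74 and 1.00 to 2.78. Itga10 stayed under 1 CPM on average in each group and was not called (95% interval -0.90 to 0.59 with A1 and -0.44 to 0.92 with A1 + OVA), and it overlaps Gm42957 on the same strand.

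These shifts changed the make-up of the alpha subunits. In control MSCs, Itgav held 37.6 ± 2.39% (SD, n = 4) of the summed per-length level of the 12 alpha subunits, Itga5 33.7 ± 1.52%, Itga3 18.6 ± 1.06%, Itga11 5.55 ± 0.18%, Itga6 2.12 ± 0.222% and Itga1 2.11 ± 0.152%. The shares of Itga6 and Itga1 did not differ beyond their spread. With A1, Itga5 led with 48.0 ± 0.487%, ahead of Itgav with 35.3 ± 0.27% and Itga3 with 10.3 ± 0.277%. With A1 + OVA the shares were 52.6 ± 1.77%, 30.6 ± 1.65% and 10.3 ± 0.203%. Itga1 had 0.557 ± 0.02% with A1 and 0.673 ± 0.0374% with A1 + OVA. The order of the leading pair with A1 depended on the gene length used: per kb of the longest transcript, Itga5 held 41.4% and Itgav 41.5% with A1, and Itga6 stood above Itga11 in both treated groups, while with A1 + OVA Itga5 still led with 46.2% against 36.7%. Within each group the ratio of Itga5 to Itgb1 was 0.101 ± 0.011 in control, 0.163 ± 0.00857 with A1 and 0.206 ± 0.0224 with A1 + OVA, without overlap between groups. That of Itgav to Itgb1 was 0.112 ± 0.00675, 0.120 ± 0.00506 and 0.120 ± 0.00486, and these groups overlapped. That of Itga1 to Itgb1 was 0.00630 ± 0.000484, 0.00189 ± 0.000129 and 0.00264 ± 0.000301.

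**Figure D3:**
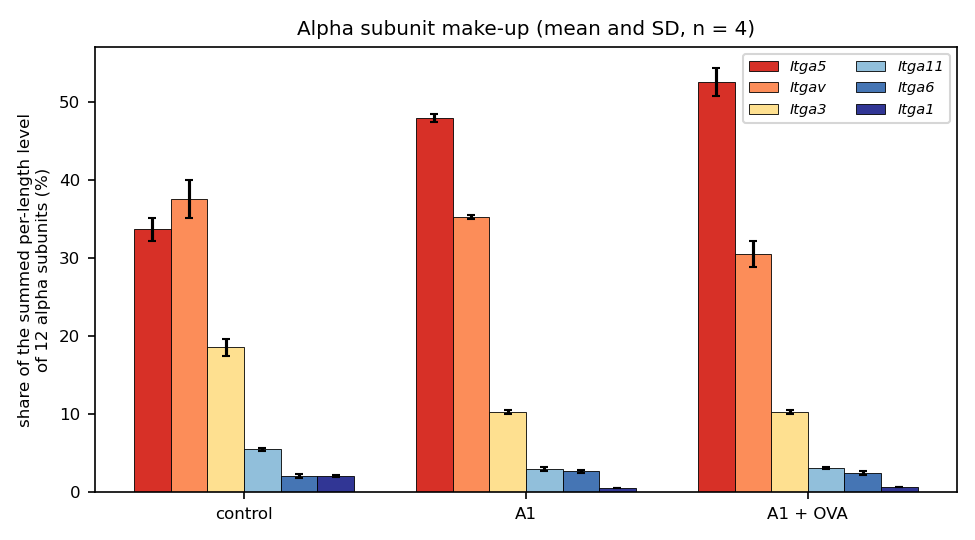
Share of the summed per-length level (CPM per kb of exon) of the 12 alpha subunits (y axis, %) for the 6 most abundant in each group (x axis), as mean and SD of 4 samples. Itga5 is at 33.7% in control, 48.0% with A1 and 52.6% with A1 + OVA, and Itga3 is at 18.6%, 10.3% and 10.3%.

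The beta subunits known from leukocytes were low. Itgb2 had 43 to 59 counts per control sample, 11 to 22 with A1 and 32 to 44 with A1 + OVA. In CPM it was at 2.66, 3.49, 2.79 and 2.88 in control, at 0.795, 1.68, 1.68 and 1.45 with A1, and at 2.32, 2.09, 2.71 and 2.71 with A1 + OVA. The A1 samples lay below all others, and the A1 + OVA samples overlapped with control. The log2 fold change was -1.08 ± 0.198 with A1 (adjusted p = 6.91e-05) and -0.27 ± 0.169 with A1 + OVA (adjusted p = 0.186, 95% interval -0.62 to 0.09). Of the 16 leukocyte markers, 6 were at 0 in each group, and the summed CPM of all 16 was 5.08 to 9.52 in control, 8.47 to 10.1 with A1 and 12.7 to 14.5 with A1 + OVA. Lcp1, which rose in both comparisons with control, made up most of that sum in treated samples. Itgal, also on this list and an alpha partner of Itgb2, fell with A1 and was not called with A1 + OVA. The part of other cells in the Itgb2 level was not tested. Itgb7 was at 1.04 to 1.35 CPM on average in each group and was not called (95% interval -0.16 to 0.79 with A1 and -0.10 to 0.83 with A1 + OVA).

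Of the 7 genes of the kindlin and ILK complex, 5 were called higher in both comparisons (all tested genes 31.7% with A1 and 29.7% with A1 + OVA). By the stricter call, 3 were higher in both (all tested genes 9.41% and 8.92%). Lims1 was lower with A1, and Parva was not called. Fermt2, the kindlin of mesenchymal cells, rose from 275 ± 6.92 CPM (SD, n = 4) in control to 363 ± 16.7 with A1 and 376 ± 7.7 with A1 + OVA (log2 0.40 and 0.45, adjusted p = 8.4e-09 and 1.29e-09). Ilk, the scaffold of the complex, was at 253, 236, 239 and 237 CPM in control, at 364, 349, 374 and 363 CPM with A1, and at 368, 373, 363 and 365 CPM with A1 + OVA. Treated and control samples did not overlap, and the log2 fold change was 0.59 ± 0.036 and 0.61 ± 0.036 (adjusted p = 4.62e-12 and 3.11e-12). The parvins, which link ILK to actin, split. Parvb (chr15:84232043-84315688) was at 105, 101, 107 and 108 CPM in control, at 207, 196, 191 and 213 CPM with A1, and at 187, 194, 190 and 188 CPM with A1 + OVA. Its log2 fold change was 0.94 ± 0.04 with A1 (adjusted p = 1.25e-14) and 0.85 ± 0.04 with A1 + OVA (adjusted p = 7.2e-14), without overlap with control. Parva was at 348 ± 9.03, 366 ± 12.4 and 363 ± 5.87 CPM and was not called, with intervals from -0.0017 to 0.15 with A1 and from -0.01 to 0.14 with A1 + OVA on the log2 scale. The ratio of Parvb to Parva per kb of summed exon was 0.696 ± 0.0174 in control, 1.27 ± 0.0549 with A1 and 1.2 ± 0.035 with A1 + OVA. By this measure Parvb passed Parva in every treated sample. That order rests on summed exon lengths of 4416 bp for Parvb and 10157 bp for Parva, and no other length was tried. In CPM, Parva remained above Parvb in every sample.

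The PINCH genes, whose products bind ILK at its other end, also differed. Lims1 was the abundant form, at 478 ± 17.4 CPM in control, 431 ± 11.8 with A1 and 476 ± 19.5 with A1 + OVA. It fell slightly with A1 (log2 -0.15 ± 0.039, adjusted p = 0.00207), and its interval with A1 + OVA ran from -0.09 to 0.07. Lims2 was at 2.60, 1.66, 2.54 and 2.19 CPM in control, at 4.48, 5.42, 4.96 and 5.74 CPM with A1, and at 6.31, 6.71, 7.20 and 5.92 CPM with A1 + OVA. The 3 groups did not overlap, and the log2 fold change was 1.2 ± 0.148 with A1 (adjusted p = 4.44e-07) and 1.54 ± 0.139 with A1 + OVA (adjusted p = 3.86e-09). Lims2 stood at 0.0219 ± 0.00201 of Lims1 per length with A1 + OVA, and at 0.00755 ± 0.00168 in control. Fblim1, or migfilin, which binds kindlin, rose from 95.5 ± 3 CPM to 111 ± 1.18 with A1 and 123 ± 4.65 with A1 + OVA (log2 0.22 and 0.37, adjusted p = 4.16e-05 and 3.26e-08).

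Of the kinases and docking proteins of focal adhesions, 4 of 5 rose in both comparisons and Nedd9 fell, where 31.7% of all tested genes were called higher and 31.1% lower with A1 and 29.7% and 27.9% with A1 + OVA. By the stricter call, 1 of the 5, Src, was higher and Nedd9 was lower in both. Of all tested genes, 9.41% were higher and 11.6% lower with A1 by that call, and 8.92% and 8.79% with A1 + OVA. Src, the tyrosine kinase that acts with focal adhesion kinase, was at 52.7, 50.4, 49.1 and 50.4 CPM in control, at 70.5, 77.9, 74.6 and 74.0 CPM with A1, and at 77.3, 78.3, 80.1 and 76.4 CPM with A1 + OVA (log2 0.55 ± 0.043 and 0.62 ± 0.043, adjusted p = 3.64e-10 and 4.34e-11). Ptk2, which encodes focal adhesion kinase, rose from 145 ± 4.11 to 167 ± 2.13 and 172 ± 2.59 CPM (log2 0.20 and 0.25, adjusted p = 3.39e-05 and 2.08e-06). Pxn, which encodes the scaffold paxillin, rose from 61.6 ± 2.16 to 76.4 ± 2.59 and 79.6 ± 3.71 CPM (log2 0.31 and 0.37, adjusted p = 4.03e-06 and 3.22e-07). The Cas family members Bcar1 and Nedd9, docking proteins phosphorylated by Src, moved apart. Bcar1 rose from 101 ± 4.62 to 131 ± 3.65 and 123 ± 3.75 CPM (log2 0.38 and 0.28, adjusted p = 5.57e-08 and 3.88e-06). Nedd9 (chr13:41309581-41487362) was at 62.7, 62.6, 57.9 and 60.8 CPM in control, at 35.6, 42.1, 39.4 and 42.7 CPM with A1, and at 37.8, 39.3, 38.8 and 37.4 CPM with A1 + OVA. It was below control in all 8 treated samples, with log2 fold changes of -0.61 ± 0.054 (adjusted p = 2.38e-09) and -0.67 ± 0.053 (adjusted p = 4.84e-10). The per-length ratio of Nedd9 to Bcar1 was 0.431 ± 0.0316, 0.217 ± 0.0128 and 0.222 ± 0.00417 in control, A1 and A1 + OVA.

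**Figure D4:**
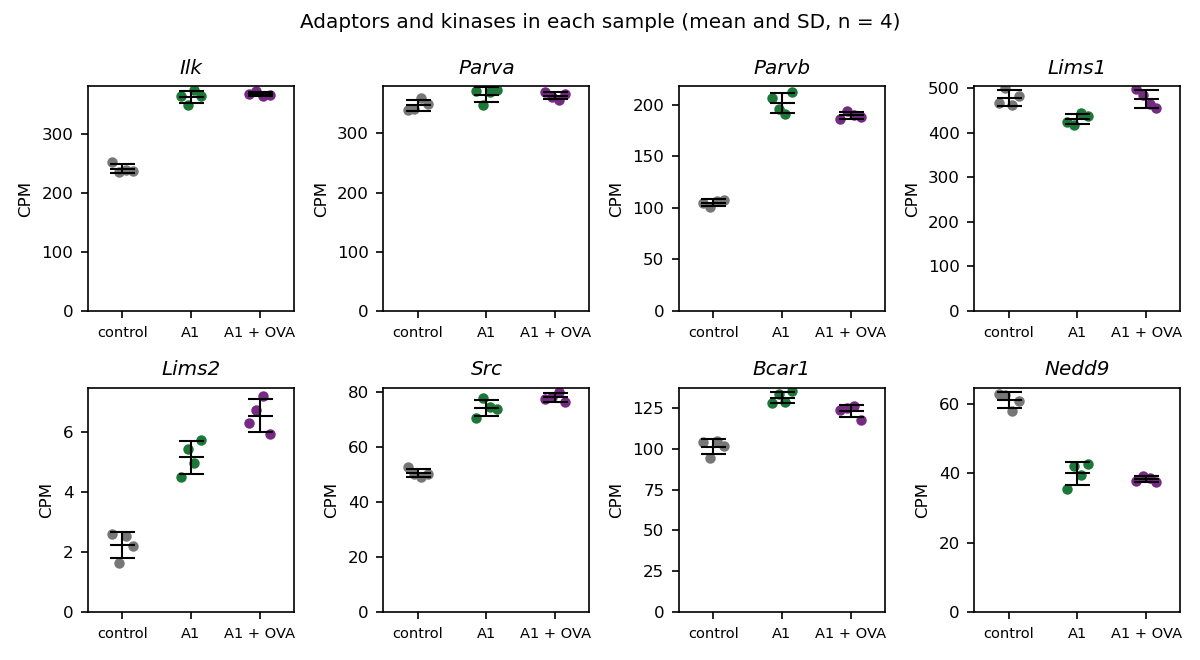
CPM (y axis, from 0) of 8 adaptors and kinases in each of the 12 samples by group (x axis), with mean and SD as bars. Parvb, Ilk, Lims2, Src and Bcar1 are higher and Nedd9 lower in all treated samples than in all control samples, while Parva overlaps between groups.

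A1 + OVA was then compared with A1 alone, a comparison in which 6.05% of tested genes were called higher and 6.81% lower. Of the 26 members, 5 were called higher (Itga5, Itga1, Itgb2, Lims1 and Fblim1) and 0 lower with edgeR. DESeq2 gave the same counts, and at an unadjusted p under 0.05, 8 members were higher and 3 lower, where 13.9% and 13.5% of all tested genes were. The stricter call left 1 member higher, Itgb2, where 0.769% of tested genes were called higher and 0.433% lower. Groups did not overlap for 10 members, where this held for 18.1% of tested genes. Itga5 was 1.22 times its level with A1 alone (log2 0.28 ± 0.051, adjusted p = 0.000957), and Itga1 1.34 times (log2 0.42 ± 0.072, adjusted p = 0.000518). Itga1 was thus nearer to control with A1 + OVA, and Itga5 farther from it. Itgb2 was 1.76 times its A1 level (log2 0.81 ± 0.208, adjusted p = 0.0122), and the smaller differences of Lims1 (log2 0.14 ± 0.039) and Fblim1 (log2 0.15 ± 0.038) had adjusted p = 0.0181 and 0.0127. Without A1 sample 1, the lowest for Itgb2, the Itgb2 difference was 0.61 (adjusted p = 0.0548) and 3 members were called higher. Without control sample 2, which enters only through the shared spread, 8 were called higher, among them Itga11, Itga3 and Lims2, whose adjusted p-values with all samples were 0.0515, 0.087 and 0.0701. Lims1 lost its call in 4 of the 12 fits that left out a sample, those without A1 sample 1 or 2 or A1 + OVA sample 1 or 2 (adjusted p = 0.0523 to 0.0601), and Fblim1 in the fit without A1 + OVA sample 4 (adjusted p = 0.0521).

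The proteins that work with these members at the adhesion site were described from a list of 67 genes, of which 61 were tested. A1 raised 36 and lowered 15 of them (all tested genes 31.7% and 31.1%), and the median of their log2 fold changes was 0.21. A1 + OVA raised 35 and lowered 14 (all tested genes 29.7% and 27.9%), with a median of 0.27. Tln1, the main talin, rose (log2 0.40 and 0.52, adjusted p = 0.00026 and 1.2e-05), while Tln2 fell (log2 -0.67 and -0.60, adjusted p = 4.6e-09 and 2.2e-08). Vcl, which encodes vinculin and binds stretched talin, rose from 438 ± 26.9 CPM to 680 ± 40.2 with A1 and 796 ± 43.2 with A1 + OVA. Its log2 fold change was 0.63 and 0.86 against control. Csrp1, a LIM protein of actin bundles, had the largest rise with A1 among the well-expressed partners (average log2 CPM of 1 or more; log2 1.18 and 1.15). Arhgef6, a Rac exchange factor that binds beta-parvin, fell by 1.53 with A1 and was at -1.09 with A1 + OVA, and Elmo1, which with Dock1 acts downstream of the Cas proteins, was at -1.0 and -1.3. Tns4, a tensin chosen after its values were seen, had the highest log2 fold change of the list, at 3.73 and 2.98, but a mean of only 0.139 CPM in control, 1.93 with A1 and 1.15 with A1 + OVA. Its control samples had at most 3 counts, read as undetectable, and Tns4 passed the filter on low counts only through the treated samples. The partners counted as higher in each comparison include it.

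The ligands were described by the integrin class that binds them, and the counts below stand beside 31.7% of all tested genes called higher and 31.1% lower with A1, and 29.7% and 27.9% with A1 + OVA. Of 14 tested fibronectin and RGD ligands, 11 rose with A1 and the other 3 were not called, the median being 0.56 on the log2 scale, and 12 rose and 1 fell with A1 + OVA. Fn1 (fibronectin) rose from 3628 CPM in control to 4884 with A1 and 5259 with A1 + OVA (log2 0.43 and 0.54, adjusted p = 0.0018 and 0.00024), although its A1 samples, at 3993 to 5673 CPM, overlapped with control at 2947 to 4243 CPM. Ccn2, a matricellular protein, rose from 116 to 134 CPM in control samples to 1190 to 1563 with A1 and 1529 to 1676 with A1 + OVA (log2 3.47 and 3.64). Tnc (tenascin-C) rose by a log2 of 3.36 and 3.12, and Spp1 (osteopontin) by 1.48 and 0.94. Thbs1 (thrombospondin-1) rose by 1.13 and 1.27. Vtn (vitronectin) had at most 1 count in any sample.

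The other ligand classes were mixed. Of 9 collagen genes, 4 rose and 4 fell in both comparisons with control, with medians of -0.04 and -0.02. Col4a1 and Col4a2, which encode the type IV collagen that alpha1 binds, rose (log2 0.59 and 0.63 with A1, 0.69 and 0.72 with A1 + OVA), as did Col6a3 (0.72 and 0.97). Of 8 tested laminin and nidogen genes, 4 rose and 3 fell with A1, and 5 rose and 2 fell with A1 + OVA. Lama5 rose (0.88 and 1.10) and Lamb1 rose (0.67 and 0.71), while Lama1 was at -1.05 and -0.47 and Nid2 at -0.74 and -0.51. Of the 4 tested genes listed only as ligands of alpha4 and alpha9, 1 rose and 3 fell in both comparisons. Tnc and Spp1, which these integrins also bind, rose and are counted above with the RGD ligands, so that the count depends on how the lists were drawn. Vcam1, which was at 219 to 235 CPM in control samples, was at 113 to 120 CPM with A1 and 118 to 125 CPM with A1 + OVA (log2 -0.95 and -0.89, adjusted p = 4.7e-15 and 1.3e-14). Adam12, a disintegrin metalloproteinase, rose (log2 1.34 and 1.27), and Svep1 and Emilin1 fell (-0.66 and -0.57 with A1, -0.32 and -0.49 with A1 + OVA).

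**Figure D5:**
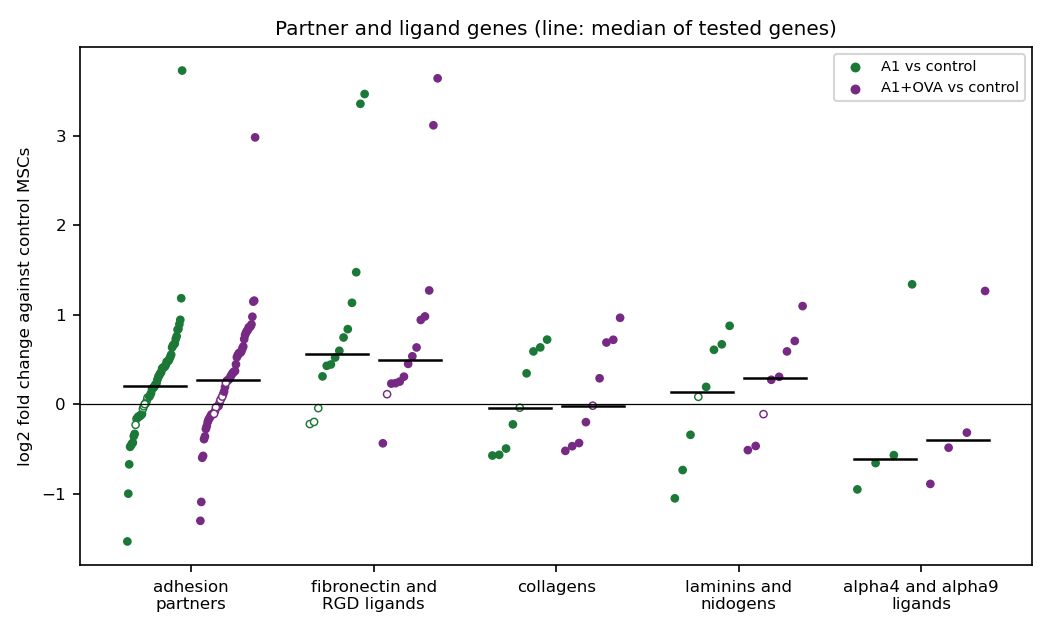
Log2 fold change against control MSCs (y axis) of tested adhesion partners and of tested integrin ligands by class (x axis), with A1 in green and A1 + OVA in purple. Each point is a gene, open points have an adjusted p-value of 0.05 or more, and lines mark the medians, which for fibronectin and RGD ligands are 0.56 with A1 and 0.49 with A1 + OVA.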

How the data were processed

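Per the labels and the methods, the authors made stranded poly(A) libraries, mapped reads on GRCm38 (STAR 2.7), summed them over genes (featureCounts 2.0) and deposited raw counts, not normalized or filtered. Samples were grouped by title. Gene symbols, biotypes and exon lengths came from GENCODE M21 (99.53% of identifiers matched).

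From the counts, protein-coding genes kept by filterByExpr (11314) were TMM-normalized and tested with edgeR 4.0.16 (R 4.3.3), quasi-likelihood, in 1 fit of 12 samples, with Benjamini-Hochberg adjustment. SE and 95% intervals come from this fit. CPM use the TMM library size, and per-length levels divide by summed exon length. DESeq2 1.42.0, other scalings, filters, sample sets and a replicate block were alternatives. With 13702348 to 16881995 counts per sample, a signal of 3 counts or fewer was read as undetectable. Scripts were tested on simulated data.

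The members and lists were chosen with earlier results of these data known. Named partners and ligands are, per list and comparison with control, the 3 largest called changes at an average log2 CPM of at least 1, plus Tln1, Tln2, Vcl, Fn1, Vtn and Vcam1; 1 partner that this rule names is not reported here. Promoters are from RefSeq (GRCm38.p6), for 19 of the 26 tested members. The order of subunits was a description without a test.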

Additional observations from a re-analysis of the deposited data

Results flagged for a closer look

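In 3 of the 78 groups of 4 samples (26 tested members in 3 groups), 1 sample stood apart from the other 3 by Dixon's criterion, which chance meets in about 1 of 20 groups. For Itga3, A1 + OVA sample 3 was the highest at 126 CPM, against 117 to 119 CPM in the others. For Parva, A1 sample 2 was the lowest at 347 CPM, against 370 to 374 CPM. For Pxn, the same A1 sample 2 was the lowest at 72.5 CPM, against 77.1 to 78.0 CPM. Without that sample, Parva was called higher with A1 (log2 0.098, adjusted p = 0.0293).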

How the results depend on the processing

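The counts of members called against control were 15 to 16 higher and unchanged lower under other scalings, filters, DESeq2, a fit with non-coding genes, a fit of 2 groups at a time and the replicate block. Itga2 dropped out of the fits of 2 groups and where 10 counts in every sample were required. Against A1 alone, 5 to 7 were higher and 0 lower under these settings. When each sample was left out in turn, 3 to 8 were higher and 0 to 1 lower. The count of 1 was without A1 + OVA sample 1, when Itgb5 was at -0.13 (adjusted p = 0.0351). Itga11 against A1 alone passed the threshold under upper-quartile scaling, without a filter, with only the 2 groups and with the replicate block (log2 0.20, adjusted p = 0.0497), and without control sample 1 or 2 or A1 + OVA sample 1 or 2 (adjusted p = 0.0338 to 0.0498), and Itga3 with only the 2 groups (adjusted p = 0.0413). Itga3 with A1 + OVA passed it without control sample 4 (log2 0.13, adjusted p = 0.0427). The replicate numbers did not pair the samples: same-numbered samples deviated together with a mean correlation of 0.021 (12 pairs, -0.13 to 0.16). With the block, 6 members were higher in A1 + OVA than in A1, and no other call on members changed.

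Differences near 0 changed sign when a sample was left out. Against A1 alone these were Itga2 (-0.12 to 0.35), Itga6 (-0.035 to 0.037), Itgb3 (-0.097 to 0.033), Itgb7 (-0.043 to 0.13) and Parva (-0.034 to 0.00016). Against control they were Itga10 with A1 (-0.33 to 0.032) and A1 + OVA (-0.025 to 0.43) and Lims1 with A1 + OVA (-0.029 to 0.016). The cause was not tested. With the longest transcript as length, Itga5 ranked 2 and Itgav 1 among alpha subunits with A1, Itga6 ranked 4 and Itga11 5 in both treated groups, Itgb8 ranked 4 among beta subunits with A1 and 5 with A1 + OVA, and Itgb7 ranked 6 with A1 + OVA. Members with under 1 CPM are limited by depth.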

Other observations

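Of 7 integrin subunits outside the 32 genes, 3 were tested. Itgad, an alpha subunit that pairs with Itgb2, was at 29.2 ± 1.72 CPM (SD, n = 4) in control MSCs, 16.8 ± 0.925 with A1 and 20.6 ± 1.31 with A1 + OVA, and it fell in both comparisons with control (log2 -0.80 and -0.50, adjusted p = 1.1e-09 and 7.4e-07). It was higher with A1 + OVA than with A1 alone (log2 0.30, adjusted p = 0.008). Itgal, the other alpha partner of Itgb2 that was tested, was at 2.75 ± 0.613, 1.5 ± 0.417 and 1.92 ± 0.615 CPM, and it fell with A1 (log2 -0.87, adjusted p = 0.0032) and was not called with A1 + OVA (adjusted p = 0.055). Itga2b was not called in either comparison. Itgam had at most 1 count and Itgax at most 2 in any sample.

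Among the marker lists, Lcp1, an actin-bundling protein known from leukocytes, rose (log2 1.45 and 2.15, adjusted p = 1.5e-06 and 8.3e-10) and made up most of the summed leukocyte markers of treated samples, at 5.56 CPM with A1 and 9 CPM with A1 + OVA. Krt19, a keratin, rose from 4.50 ± 0.618 CPM to 10.1 ± 1.3 with A1 and 9.33 ± 0.364 with A1 + OVA, while Epcam was at 0 counts in all samples. Cd44, a receptor for hyaluronan, rose (log2 1.39 and 1.2), and Cxcl12, the chemokine that holds blood cells in the marrow, fell (log2 -1.37 and -1.21).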
